A study of Mus musculus with 2 samples.

Results

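Genes of the cell cycle were read on 2 arrays of regulatory T cells (Treg), the CD4 T cells that restrain immune responses through the transcription factor Foxp3. The group was a fixed list of 47 genes that drive, brake or carry out cell division. Of these, 46 had a probe set that the platform annotation pairs with that gene alone, out of 18193 genes with such a probe set in all, and Ccnb1 had none. The brightest probe set, by its mean of both arrays, stood for its gene, and every other probe set of the gene was then set beside it. Flow cytometry was used to sort the cells from spleens and lymph nodes; the donors were females, 6 to 8 weeks old. Both donor genotypes carried Cre recombinase at 1 Foxp3 allele, written Foxp3 Cre/wtS on the samples, so Cre is made where Foxp3 is active. They differed at Stat3, which relays signals of cytokines such as IL-6 and IL-10 to the nucleus: 1 array was from mice with a single floxed allele (fl/wt) and 1 array from mice with both alleles floxed (fl/fl). Foxp3 is X-linked, so in these females only the Treg that use the Cre-bearing X can delete Stat3; the sources used here do not give whether the sort selected them, or how many mice gave each sample.

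In a dividing T cell, D-type cyclins pair with Cdk4 and Cdk6 to inactivate the Rb proteins, which frees E2F factors to turn on genes of DNA replication. Cyclin E with Cdk2 completes the entry into S phase, and cyclins A and B with Cdk1 later drive mitosis together with the Aurora and Polo kinases. Inhibitors of the Cip/Kip family (Cdkn1a, Cdkn1b) and the Ink4 family (Cdkn2c, Cdkn2d) hold cyclin-dependent kinases (CDKs) back. Treg are known to divide more than other CD4 T cells in the unperturbed mouse, under the drive of IL-2 and antigen.

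Promoters of members were searched for motifs of cell cycle factors. RefSeq promoter windows of GRCm38.p6, from 250 bases before to 50 after the start, matched 39 members by symbol with 44 windows. Motifs were searched on both strands: E2F sites (TTTCCCGC, TTTCGCGC, TTTGCCGC or TTTGGCGC), the Stat site (TTCNNNGAA), the CCAAT box by its name's letters, and the cell cycle homology region, called CHR (TTTGAA). E2F binds genes of S phase entry, and the CHR is bound by the MuvB complex on genes of G2 and mitosis, where CCAAT boxes are frequent. An E2F motif was present in 6 of 14 windows of S phase genes and in 1 of 15 windows of mitosis genes, against 2.26% of all 32851 windows. The CHR was present in 11 of 15 windows of mitosis genes and 2 of 14 of S phase genes, against 17.9% of all windows. All 11 of these mitosis windows also held a CCAAT box, a combination found in 6.95% of all windows. The 2 S phase windows with a CHR held a CCAAT box as well. With or without a CHR, a CCAAT box was in 14 of 15 mitosis windows and 10 of 14 S phase windows, against 37.4% of all windows. These counts depend on the length read. In the 100 bases before the start, an E2F motif was in 1 of 14 S phase windows and 0 of 15 mitosis windows, against 0.846% of all windows. A CHR was in 6 of 15 mitosis windows and 1 of 14 S phase windows at this length, against 5.77%, and a CHR with a CCAAT box in 4 of 15 mitosis windows, against 1.06%. None of the 10 windows of Ccnd3, Cdk4, Cdk6 and the 4 CDK inhibitors held an E2F motif or a CHR in the whole window; the promoters of Ccnd1 and Ccnd2 were not analysed here. A Stat motif was found in 2 of the 44 member windows, those of Mcm5 and Cdc45, or 4.55%, against 8.30% of all windows. A match is a run of letters and not a shown binding site.

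The 250 bases before the start are printed for 5 members chosen after their matches were seen, since they show these arrangements side by side; capitals mark motif matches. Mcm5 and Mcm6 encode subunits of the replicative helicase, Top2a the topoisomerase that untangles sister chromatids, Kif11 the motor that pushes spindle poles apart, and Cdk4 the kinase partner of D cyclins. The regions are chr8:75109259-75109508 on the plus strand, chr1:128359706-128359955 on the minus strand, chr11:99024190-99024439 on the minus strand, chr19:37376132-37376381 on the plus strand and chr10:127063285-127063534 on the plus strand, each given 5′ to 3′ along its gene.
Mcm5: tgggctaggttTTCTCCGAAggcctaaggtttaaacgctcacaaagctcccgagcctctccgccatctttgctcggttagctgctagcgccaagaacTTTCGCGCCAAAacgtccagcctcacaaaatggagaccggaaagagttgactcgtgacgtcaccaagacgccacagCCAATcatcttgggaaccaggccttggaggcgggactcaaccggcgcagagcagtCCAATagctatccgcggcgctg
Mcm6: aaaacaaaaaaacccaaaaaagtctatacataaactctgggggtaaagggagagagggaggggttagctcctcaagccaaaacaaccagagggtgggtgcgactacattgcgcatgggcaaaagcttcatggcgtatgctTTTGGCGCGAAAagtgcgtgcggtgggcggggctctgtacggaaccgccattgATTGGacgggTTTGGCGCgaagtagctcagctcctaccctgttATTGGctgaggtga
Top2a: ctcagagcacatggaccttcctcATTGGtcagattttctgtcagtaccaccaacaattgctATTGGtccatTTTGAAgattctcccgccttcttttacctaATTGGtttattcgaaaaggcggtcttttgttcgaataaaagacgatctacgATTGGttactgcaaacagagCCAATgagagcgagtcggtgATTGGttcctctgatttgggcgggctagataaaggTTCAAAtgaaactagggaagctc
Kif11: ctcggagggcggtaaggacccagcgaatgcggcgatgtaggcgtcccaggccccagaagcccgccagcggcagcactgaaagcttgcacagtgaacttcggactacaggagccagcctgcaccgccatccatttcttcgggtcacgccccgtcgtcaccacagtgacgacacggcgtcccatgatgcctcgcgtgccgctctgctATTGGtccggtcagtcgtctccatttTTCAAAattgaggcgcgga
Cdk4: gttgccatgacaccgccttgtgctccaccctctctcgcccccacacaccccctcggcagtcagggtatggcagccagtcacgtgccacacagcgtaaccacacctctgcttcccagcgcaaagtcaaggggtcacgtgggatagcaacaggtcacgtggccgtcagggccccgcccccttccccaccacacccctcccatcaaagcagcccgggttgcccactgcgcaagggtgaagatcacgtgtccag
In Mcm5 the Stat match begins 239 bases before the start and a pair of overlapping E2F matches begins 153 and 149 bases before it. Mcm6 holds E2F matches that begin 110, 106 and 47 bases before the start. Top2a and Kif11 each hold a CHR close to the start, beginning 23 and 19 bases before it, with CCAAT boxes upstream. The Cdk4 stretch holds no letters of any of the motifs searched.

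The arrays gave log2 values processed with GCRMA, a method that subtracts background estimated from probe sequence. A gene was called measured where its mean over both arrays was at or above log2 5, since values under that lie in a dense low end without order. This held for 9719 genes and for 45 of the 46 members. The exception was Ccnf, a cyclin of the F-box family, at 4.80 (fl/wt) and 4.79 (fl/fl). Without replicate arrays no error can be given, so every difference below is a description of these 2 arrays. The 3 measured probe sets of Stat3 differed by -0.083 to -0.0083 on the log2 scale (fl/fl minus fl/wt), and the sources used here do not place them relative to the floxed part, so they do not check the labels. The Treg markers Ctla4 (14.91 in fl/wt, 14.87 in fl/fl), Ikzf2 (13.88 and 13.86) and Il2ra (13.45 and 13.35) gave high signals, while that of Foxp3 stayed under log2 5. The 3′ minus 5′ control signals, a sign of RNA quality, were 1.83 (fl/wt) and 1.86 (fl/fl) for Actb on the log2 scale. For Gapdh they were 1.87 and 1.89.

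Members were widely detected in both arrays. In fl/wt, 97.8% of members with a probe set were at or above log2 5 and 52.2% at or above log2 10, against 53.4% and 28.5% of all genes. In fl/fl, 97.8% and 56.5% of members reached these levels. The median member level was 10.37 (fl/wt) and 10.38 (fl/fl). The proliferation marker Mki67, present in cycling cells and lost in resting ones, read 12.60 (fl/wt) and 12.57 (fl/fl). Top2a read 11.80 and 11.83, and Pcna, the sliding clamp of DNA polymerase, 14.50 and 14.46. In a bulk sample, a larger share of cycling cells and more transcript per cycling cell cannot be told apart.

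By role, the medians of log2 level were 12.02 (fl/wt) and 12.05 (fl/fl) for D cyclins and their kinases (5 genes), and 10.27 and 10.24 for CDK inhibitors (4 genes). They were 8.94 and 9.06 for regulators of the G1/S transition (5 genes), 12.39 and 12.39 for S phase genes (14 genes), and 9.49 and 9.49 for G2 and mitosis genes (18 genes). D cyclins, their kinases and inhibitors together had a median of 12.01 (fl/wt) and 11.95 (fl/fl). S phase, G2 and mitosis genes together had 10.52 in both arrays. These are array signals and not transcript amounts, because probe sets differ in binding: the 7 probe sets of Ccnd2 alone spanned 7.21 on the log2 scale. The order of roles therefore does not rank transcripts. Read as the median of all probe sets of a gene, S phase genes had a median of 10.42 in fl/wt, below the 11.10 of D cyclins and their kinases, which turns the order of these 2 roles. Mitosis genes were then at 8.37 and inhibitors at 8.82.

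**Figure D1:**
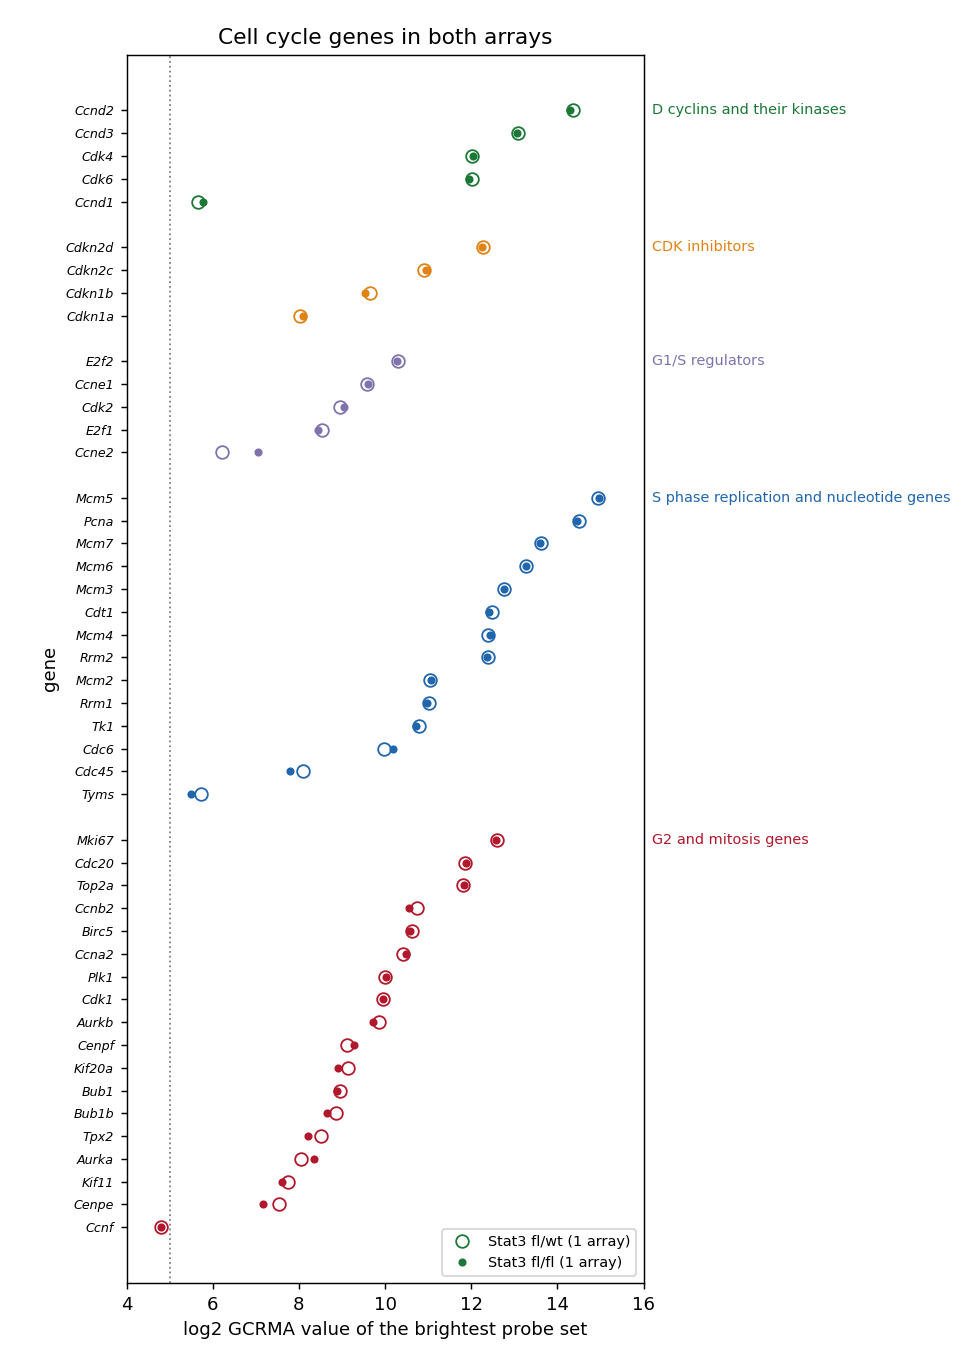
Log2 GCRMA value (x axis) of the brightest probe set of each of 46 cell cycle genes (y axis), by role, in the fl/wt array (open circles) and the fl/fl array (filled dots); the dotted line marks log2 5. Open and filled marks lie on each other for most genes, with Ccne2 apart at 6.22 and 7.06 and Ccnf under the line.

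The array labelled fl/fl differed little from the array labelled fl/wt over these genes. On the log2 scale, the size of the difference was below 0.1 for 29 of 45 measured members and below 0.25 for 40. Members were lower in fl/fl in 25 of 45 cases, against 52.6% of all measured genes, and their median difference was -0.033 against -0.0047 for all genes. These splits depend on the zero point: once each array was centred on its median over all probe sets, which lowers every difference by the same small amount, 34 of 45 members and 68.7% of all genes were lower. A difference of 1.5-fold or more was seen for 1 member higher in fl/fl, Ccne2, where 0.237% of all genes were past that size, and for 0 members lower, where 0.401% were. At a size of 0.25 on the log2 scale, the higher members were 2 (Ccne2 and Aurka) and the lower ones 3 (Cenpe, Tpx2 and Cdc45), against 2.54% and 3.22% of all genes. The spread of all genes depended on level: their central 95% lay from -0.70 to 0.52 for genes between log2 5 and 6 and from -0.079 to 0.081 for those at 13 and above. Set against genes of like level in bands of 1 log2 unit, 3 members lay above the central 95% (Ccne2, Cdc6 and Aurka) and 3 below it (Ccnb2, Kif20a and Tpx2), where 2.53% of all genes lie on each side by construction. With the same bands shifted by 0.5, an alternative chosen after the data were seen, 2 lay above and 1 below (Ccne2, Cdc6 and Ccnb2), so Aurka, Kif20a and Tpx2 sat at the edge. In size, 25 of 45 members exceeded the median size of their band, against 50% of all genes by construction.

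**Figure D2:**
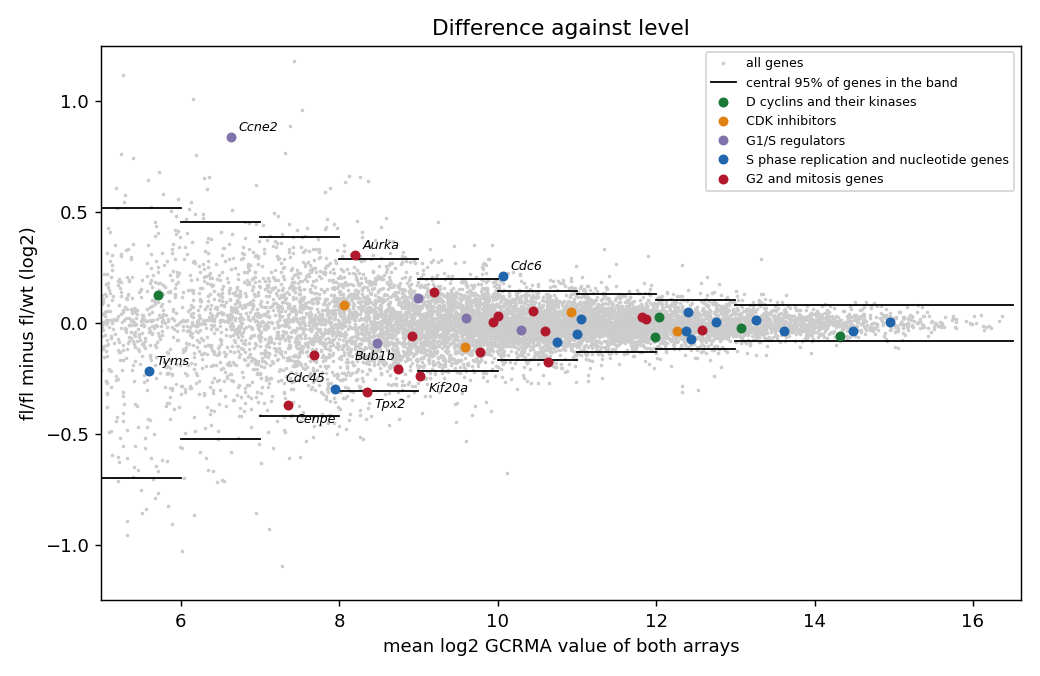
Difference between arrays (y axis, fl/fl minus fl/wt, log2) against the mean log2 value of both arrays (x axis) for 9719 genes (grey) and 45 cell cycle genes coloured by role; black lines bound the central 95% of all genes in each band of 1 log2 unit (the last from 13 up). Ccne2 stands above its band at 0.84, and most other members lie within theirs.

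Among D cyclins, which link growth signals to the cell cycle, Ccnd2 and Ccnd3 gave strong signals and Ccnd1 a weak one. Ccnd2 read 14.36 (fl/wt) and 14.30 (fl/fl), a difference of -0.057, and Ccnd3 read 13.08 and 13.06. Ccnd1 read 5.66 and 5.78, near the threshold, and its other probe sets stayed under log2 5. The kinases Cdk4 (12.02 and 12.05) and Cdk6 (12.01 and 11.95) differed by 0.029 and -0.062. All 5 genes lay within the central 95% of genes of like level.

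All but 1 of the 7 Ccnd2 probe sets were slightly lower in fl/fl, by -0.057 to -0.0087. The dimmest was higher, at 6.93 (fl/wt) and 7.31 (fl/fl), a difference of 0.38. The 3 Cdk4 probe sets were all higher in fl/fl, by 0.029, 0.051 and, for the dimmest, 0.21, though the brightest was at -0.0028 once each array was centred on its median. For Ccnd3 the brightest probe set differed by -0.020 while the others were higher by 0.016 and 0.13. In Ccnd2, Ccnd3 and Cdk4 the largest difference therefore belonged to the dimmest measured probe set.

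The CDK inhibitors differed by -0.11 to 0.080, and none left the central 95% of genes of like level. Cdkn1b, which encodes p27 and is high in resting T cells, read 9.65 (fl/wt) and 9.54 (fl/fl). Cdkn1a, the p53-induced inhibitor p21, read 8.02 and 8.10, and its second measured probe set went the opposite way, from 5.45 to 5.28. The Ink4 inhibitors Cdkn2c (10.90 and 10.95) and Cdkn2d (12.28 and 12.25) were each read by a single probe set. The 4 genes split evenly, 2 higher in fl/fl and 2 lower, around a median of 0.0076, which was -0.024 with centred arrays and -0.033 as the median of all probe sets.

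Ccne2, 1 of the pair of E cyclins that open S phase, had the largest difference of all members. Its only probe set read 6.22 (fl/wt) and 7.06 (fl/fl), a difference of 0.84 or 1.79-fold. With 32 added on the linear scale, which damps dim genes, it was 0.64. In the band from log2 6 to 7, 7 of 560 genes were higher by 1.5-fold or more and 10 lower, and the central 95% ran from -0.52 to 0.46. Its paralogue Ccne1 read 9.59 and 9.61 in its brightest probe set, and 8.95 and 8.86 in the other, so its probe sets differed in direction. Cdk2, the kinase that both E cyclins bind, read 8.94 and 9.06, a difference of 0.11. The E2F factors were slightly lower in fl/fl in both measured probe sets of each gene, by -0.089 and -0.15 for E2f1 and by -0.033 and -0.068 for E2f2. The 1.5-fold difference among G1/S regulators thus stood in 1 probe set of 1 gene.

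S phase genes differed little in size, with 6 higher and 8 lower in fl/fl and a median of -0.034. Centred arrays gave 2 and 12, and without shared-suffix probe sets the split was 6 and 6 with a median of 2.9e-05. The median size of difference was 0.042. Set against genes of like level, 9 of 14 exceeded the median size of their own band, against 50% of all genes by construction. In their brightest probe sets, the helicase subunits Mcm2 to Mcm7 differed by -0.036 (Mcm7) to 0.049 (Mcm4), at levels from 11.04 (Mcm2, fl/wt) to 14.96 (Mcm5, fl/fl). Over all their measured probe sets, differences ran from -0.080 (Mcm2) to 0.11 (Mcm3). The second probe set of Mcm4 differed by -0.040, and the others of Mcm7 were higher in fl/fl, by 0.0014 to 0.040. Mcm5, whose promoter is printed above, read 14.95 (fl/wt) and 14.96 (fl/fl), and Mcm6 read 13.26 and 13.27. Pcna differed by -0.034, the thymidine kinase gene Tk1 by -0.086, and the ribonucleotide reductase genes Rrm1 and Rrm2, which make deoxynucleotides, by -0.051 and -0.034. The licensing factor Cdt1 read 12.48 and 12.41, and 10.12 and 10.13 in its other measured probe set.

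The largest S phase differences were in Cdc45, Tyms and Cdc6, the first pair lower in fl/fl and Cdc6 higher. Cdc6, which loads the Mcm complex on origins, read 9.97 (fl/wt) and 10.18 (fl/fl), a difference of 0.21 in its only probe set. Cdc45, which joins the helicase when origins fire, read 8.09 and 7.79, a difference of -0.30. Its second probe set, under log2 5, read 3.78 and 3.64. Cdc6 lay above the central 95% of genes of like level (-0.17 to 0.15), and Cdc45 lay inside it (-0.42 to 0.39). Tyms, the thymidylate synthase gene, differed by -0.22 near the threshold and lay inside it (-0.70 to 0.52).

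In the values as deposited, probe sets of S phase genes seldom shared a direction. Of the 8 S phase genes with 2 or more measured probe sets, 1 had all in the same direction, against 38.7% of all such genes. This was Mcm3, by 0.0028, 0.070 and 0.11. The count depends on the zero point, because some opposed signs belong to small differences, such as 0.0070 and -0.010 in Mcm5. It was not repeated with centred arrays. Rrm2 differed by -0.034 in its brightest probe set and by 0.12 and 0.064 in the others. Tyms read only 5.71 (fl/wt) and 5.50 (fl/fl) in its brightest single-gene probe set, with 3 others under log2 5. A probe set annotated to both Tyms and Tyms-ps, left out by the rule and chosen after its value was seen, read 10.84 in both arrays.

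G2 and mitosis genes held 4 of the 6 members outside the central 95% of genes of like level, and 1 of 3 with the shifted bands. In fl/fl, 7 of 17 measured were higher and the other 10 lower; the median was -0.034. Centred arrays gave 4 and 13, while probe sets without a shared suffix gave 8 and 6 and a median of 0.018. The median size of difference was 0.13, against 0.053 over all genes and 0.064 for genes between log2 9 and 10; 10 of 17 exceeded the median size of their own band. The cyclins and kinases of mitotic entry were not alike. Cdk1 read 9.95 in both arrays, Plk1 9.99 and 10.02, and Ccna2 10.43 and 10.48. The second probe set of Ccna2 went the opposite way, at 10.38 and 10.32. Ccnb2, a B-type cyclin, read 10.73 and 10.55, a difference of -0.18, and lay below the central 95% of genes of like level; Aurka, described with the spindle genes, lay above it. The anaphase activator Cdc20 (11.86 and 11.88) and the chromosomal passenger subunit Birc5 (10.62 and 10.59) were close in both arrays.

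Genes of the spindle and kinetochore had the largest mitotic differences. Cenpe, the kinetochore motor that aligns chromosomes, read 7.54 (fl/wt) and 7.17 (fl/fl), a difference of -0.37. Its second probe set lay under log2 5, at 4.82 and 4.26. Tpx2, a spindle assembly factor that activates Aurora A, read 8.51 and 8.20, and its other measured probe set 6.25 and 6.11, differences of -0.31 and -0.14. Kif20a, a motor needed for cytokinesis, differed by -0.24 (9.14 and 8.90) in its only probe set. Kif11 was lower in both measured probe sets, at 7.75 and 7.61 in the brighter and 7.01 and 6.70 in the dimmer.

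Other spindle genes went the other way or had probe sets that differed. Aurka, which encodes Aurora A itself, read 8.05 (fl/wt) and 8.36 (fl/fl), a difference of 0.31, where its activator Tpx2 was lower. Averaged by the median with its second probe set, which is under log2 5, the Aurka difference was 0.16. Cenpf, a kinetochore protein of G2, read 9.13 and 9.27. Aurkb, the kinase of the chromosomal passenger complex, differed by -0.13 and, in its second probe set, by -0.016. Bub1b, a checkpoint kinase that delays anaphase, differed by -0.21 in its brightest probe set (8.85 and 8.64) and by 0.22 in the next (8.10 and 8.32), so its direction depended on the probe set read. Its checkpoint partner Bub1 differed by -0.060.

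Read over all 79 measured probe sets of the 45 members, 36 differences were above 0 and 43 below, and their median was -0.016 against -0.0026 for all measured probe sets. Of the 23 members with 2 or more such probe sets, 10 had all of them in the same direction. For members with exactly 2, this was 8 of 17 or 47.1%, against 49.8% of the 2608 genes with exactly 2. Among mitosis genes it was 5 of 7. These counts of direction depend on the zero point and were not repeated with centred arrays. Probe sets of 1 gene share the same RNA and are not replicates.

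**Figure D3:**
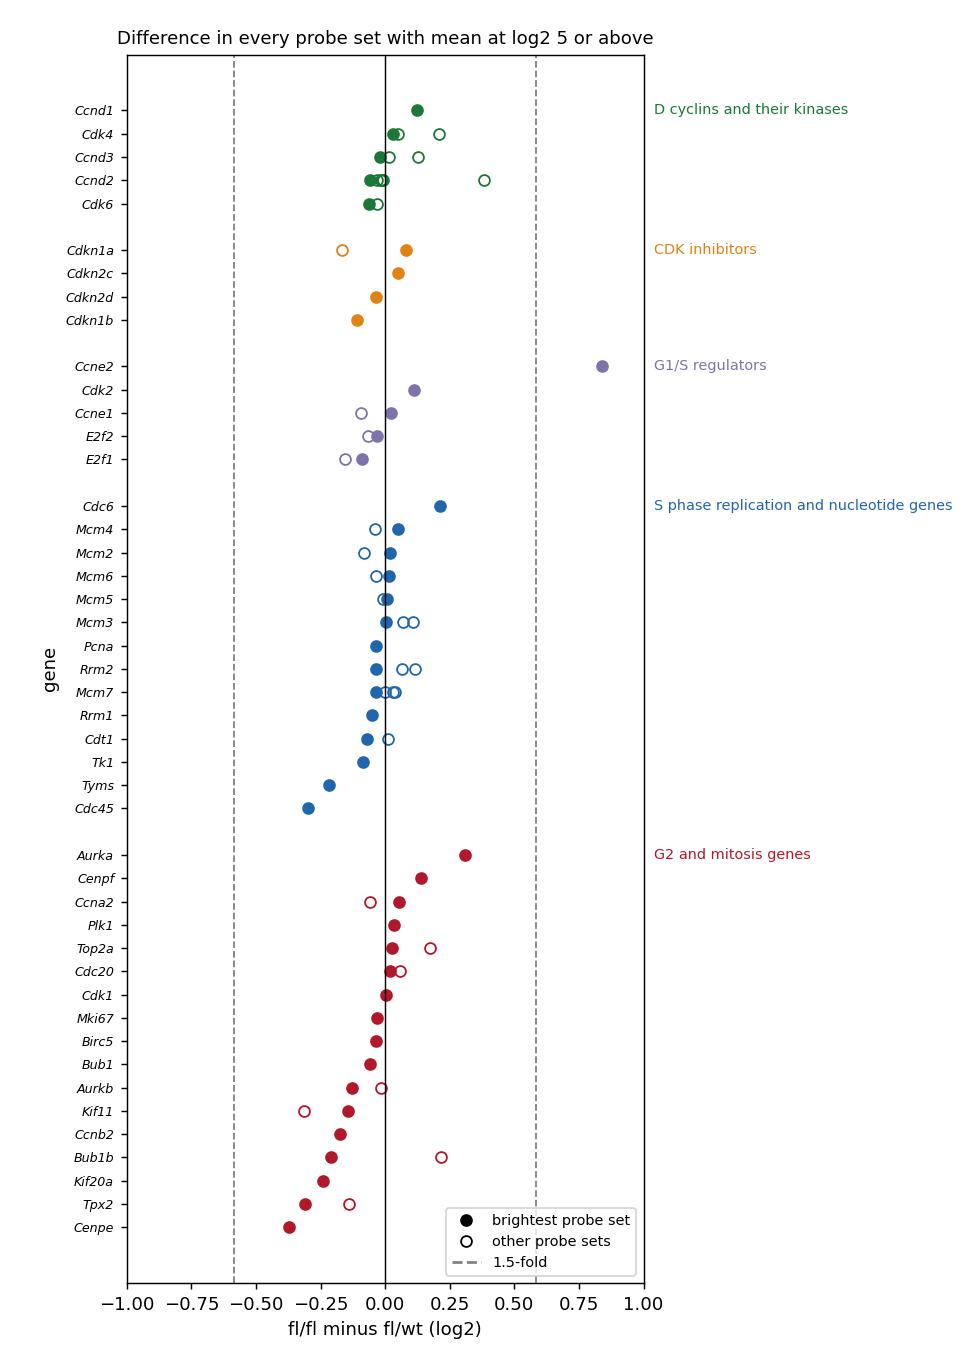
Difference between arrays (x axis, fl/fl minus fl/wt, log2) for each of 79 probe sets with a mean at or above log2 5, by gene (y axis) and role; filled dots are the brightest probe set of a gene, open circles its others, and dashed lines mark 1.5-fold. Ccne2 alone passes 1.5-fold, and marks of genes such as Bub1b lie on both sides of 0.

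Other genes of the cell cycle, listed by role and outside the 47, gave 109 measured genes of 118. In fl/fl, 60 of them were higher and 49 were lower (median 0.0064), and none passed 1.5-fold in either direction; centred arrays gave 37 and 72. Among 38 other mitosis genes, 24 were higher in fl/fl and 14 lower, for a median of 0.019, where the 17 mitosis members had -0.034. With centred arrays the split of these 38 was 15 and 23, and the medians were -0.012 and -0.066. The kinetochore gene Ndc80 (8.72 in fl/wt, 8.96 in fl/fl) and the cytokinesis factor Ect2 (7.34 and 7.53) were at the upper end, and the checkpoint kinase Ttk (7.12 and 6.89) and the cytokinesis scaffold Anln (6.48 and 6.29) at the lower. The 31 other replication genes divided into 16 higher and 15 lower, and their median was 0.0028, or -0.029 without shared-suffix probe sets and with centred arrays. Gins2, a helicase subunit that works beside Cdc45, was lowest at 8.06 and 7.71, a difference of -0.35, followed by the polymerase subunit Pola1 (-0.19). The origin recognition subunit Orc4 (0.20) and Mcm10 (0.18) were highest, though the 4 measured probe sets of Orc4 ran from -0.10 to 0.22.

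The Rb family, E2F partners and MuvB subunits had 8 higher and 8 lower of 16, with a median of -0.0088. The repressor-type E2F gene E2f5 (0.21) and the MuvB subunit Lin52 (0.18) were at one end. Lin37 (-0.14), also of MuvB, and Mybl2 (-0.098) were at the other. The other measured probe set of E2f5 differed by -0.0078. Other CDK regulators had 8 higher and 7 lower of 15. The Ink4 inhibitor Cdkn2b differed most, from 5.01 to 5.55, a difference of 0.54 near the threshold. The phosphatase genes Cdkn3 (0.24) and Cdc25a (-0.19) followed. Skp2, which targets p27 for decay, was at -0.11 in its brightest probe set, while its 5 measured probe sets ran from -0.27 to 0.37. Genes linked to quiescence had 4 higher and 5 lower of 9 with a median of -0.0025. Centred arrays gave 6 and 10 for the Rb and E2F list, 4 and 11 for other CDK regulators and 1 and 8 for quiescence genes. Among the quiescence genes Tob1, an antiproliferative factor, differed by 0.13 and Foxo3 by -0.083. Foxo1 differed by 0.017 in its brightest probe set and by -0.047 and -0.0054 in the other measured ones. Tsc1, a brake on mTOR, differed by -0.20 in its brightest probe set and by 0.34 in the next (7.73 and 8.06). Its direction thus depended on the probe set read.

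**Figure D4:**
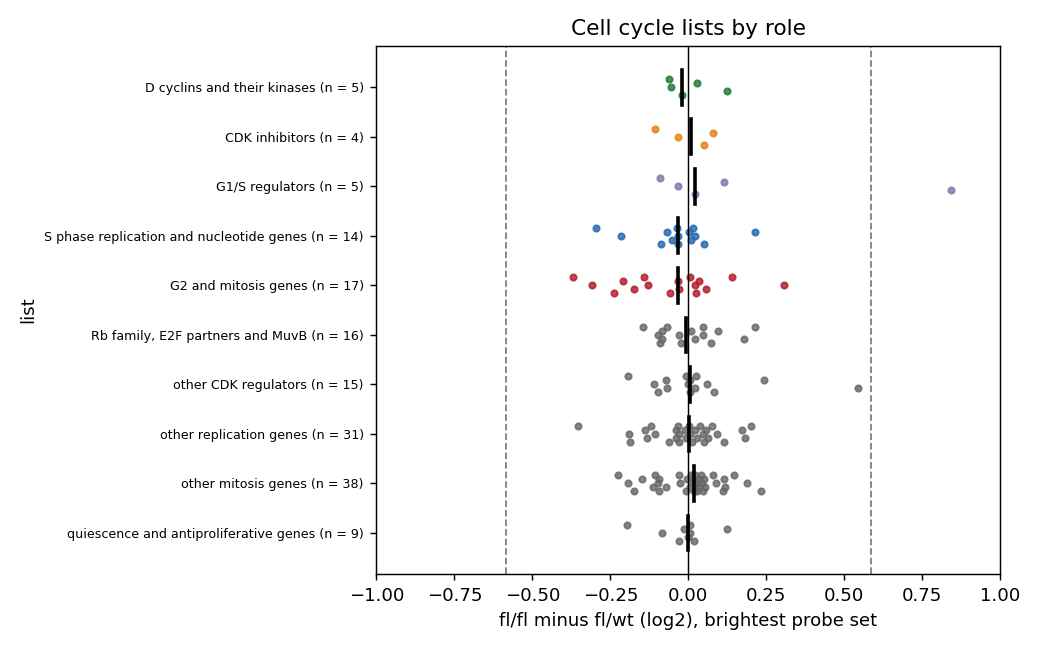
Difference between arrays (x axis, fl/fl minus fl/wt, log2) of each measured gene (points) in the member roles (coloured) and the other cell cycle lists (grey), with the list median as a black bar and dashed lines at 1.5-fold. Medians lie between -0.034 and 0.023, and Ccne2 is the single point past a dashed line.

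Cell types other than Treg that could carry cycling cells gave the following signals beside these results. Of the B cell markers, 4 of 6 with a probe set were measured, with a summed level of log2 10.74 (fl/wt) and 10.66 (fl/fl). The brightest was Cd79b (10.34 and 10.26), and Pax5 and Cr2 were under log2 5. Of the germinal centre B cell markers, 1 of 3 was measured, S1pr2 (7.45 and 7.29), and Mybl1 and Gcsam were under log2 5. Of the erythroid precursor markers, 3 of 7 were measured, with summed levels of 12.02 and 12.04 that come mostly from Tfrc, which dividing T cells also express. Car2 read 7.12 and 6.95 and Alas2 6.26 and 5.97. Klf1, Epb42, Rhag and Hba-a1 were under log2 5 in both arrays. Macrophage and monocyte markers had 6 of 7 measured at summed levels of 15.94 and 15.93. Vcam1 read 14.87 and 14.86, Csf1r 13.99 and 14.00, Lyz2 12.59 and 12.52, and Hmox1 12.27 and 12.18. Adgre1 read 12.04 and 12.09 and Cd14 10.56 and 10.51, while Itgam was under log2 5. For comparison, Treg and CD4 T cell markers had 8 of 9 measured at summed levels of 16.66 and 16.64. CD8 and NK markers had 3 of 4 measured at 9.56 and 9.69. Plasma cell markers had 3 of 4 measured at summed levels of 13.62 and 13.64. These come mostly from Xbp1 (13.36 and 13.38). Jchain read 10.03 and 10.08 and Prdm1 10.06 and 10.04, while Sdc1 was under log2 5 in both arrays. Dendritic markers had 1 of 4 measured, Itgax (6.81 and 7.01). Neutrophil and double positive thymocyte markers had 0 measured of 4 with a probe set in each list. The part of these cells in the cell cycle signal was not tested.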

How the data were processed

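Treg RNA was hybridised as biotin-labelled cRNA to Affymetrix arrays, 1 per genotype, per the labels' protocols. For 45101 probe sets the deposited log2 values were made by the authors with GCRMA, per the submitters' processing notes; the sources used here do not give its settings or which arrays were normalised together. The log2 scale was read from the values (0.53 to 16.9). Names came from the platform annotation: 34945 probe sets had 1 symbol, 932 several and 9160 none, with 64 controls left out. All 109 member probe sets matched RefSeq by Entrez identifier.

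Differences are fl/fl minus fl/wt on the log2 scale. Genes with a mean at or above log2 5 were kept, and values under 5 were set to 5. Any other gene was named by its list: all past 1.5-fold and the 2 largest in each direction. Members, lists and rules were chosen with earlier results of these data known. With 1 array per genotype no test was made, and the number of arrays limits the precision. The procedure was run on simulated data with large known shifts, which checks its arithmetic and not differences of the sizes seen here. Alternatives were 3 other floors, 2 other filters, 32 added on the linear scale, 2 other probe set rules and 3 scalings. Python 3.11.15, pandas 2.3.3, numpy 2.4.6 and statsmodels 0.14.6 were used.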

Additional observations from a re-analysis of the deposited data

How the results depend on the processing

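The counts of members past 1.5-fold, 1 higher and 0 lower, were the same under 11 alternatives of floor, filter, probe set rule and scaling. A 2-fold threshold gave 0 higher, and a threshold of 0.25 on the log2 scale gave 2 higher and 3 lower, by construction. Counts outside the central 95% of genes of like level were 3 above and 3 below, and 2 and 1 with bands shifted by 0.5, an alternative chosen after the data were seen. The median of all members ran from -0.064 to -0.010. The G1/S median of 0.023 was -0.036 as the median over all probe sets and -0.061 when shared-suffix probe sets were dropped, and the cause was not tested. Medians changed sign under 2 alternatives for CDK inhibitors, 3 for G1/S regulators, 1 for S phase and 1 for mitosis genes. Centring each array on its median over all probe sets moved the median of all genes from -0.0047 to -0.036, and the other scalings moved it by less. Of 45 members, 29 kept their sign throughout and 16 did not; 15 of 482 recomputed differences moved by more than 0.25 of the width of their band. In the 100 bases before the start, fewer member windows held a motif: an E2F motif was in 1 of 14 S phase windows (0.846% of all windows), a CHR in 6 of 15 mitosis windows (5.77%) and a CHR with a CCAAT box in 4 of 15 (1.06%). No paired analysis was possible because each genotype has 1 array.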
